A study of Mus musculus with 4 samples.

Results

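Interferon-stimulated genes are the antiviral and antigen-presentation genes that cells switch on when they sense an interferon. The 43 genes described here are mouse members of this programme, 30 of them classed as targets of type I interferon and 13 as targets of interferon gamma (the gamma-type targets). They were chosen by name, with older symbols allowed, from 29675 genes named on the arrays, and all 43 had a probe. The study measured RNA of Swiss 3T3 cells, a mouse fibroblast line, on single-colour Agilent arrays, in a project on the exchange between fibroblasts and maturing mast cells. The line either had intact Lpar1 (genotype Lpar1+/+, called WT) or lacked it (Lpar1-/-, called KO). The Lpar1 protein is a G protein-coupled receptor that binds the lipid lysophosphatidic acid. The KO cells are a CRISPR/Cas9 line grown from a single cell, with a guide placed next to exon 3, so a difference between genotypes is also a difference between this clone and its parent line. Each genotype was sampled at 0 h and at 24 h of growth beside mast cells raised from WT bone marrow, and the coculture medium held stem cell factor at 100 ng/ml. Whether mast cells were present in the 0 h samples is not stated, and the design text speaks of fibroblasts kept with or without them. After coculture the cells were separated by trypsin treatment and reseeding, or with magnetic beads against CD117. Each of the 4 groups (genotype by time) has 1 array of RNA pooled from 3 samples. Without replicates, no difference here carries a test or a p-value.

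Type I interferons act through the receptor chains Ifnar1 and Ifnar2, whose kinases activate a complex with Stat2 and Irf9 that binds a DNA element called the interferon-stimulated response element (ISRE). Interferon gamma acts through Ifngr1 and Ifngr2 on genes with a gamma-activated site (GAS), and it also induces the factor Irf1, which binds ISRE-like DNA. Many targets answer to both. In fibroblasts this programme is known for its antiviral proteins, for guanylate-binding and immunity-related GTPases that attack the vacuoles of intracellular microbes, and for the immunoproteasome and peptide transporter that feed MHC class I.

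Signals are given as log2 of the processed intensity minus the array's own 75th percentile, so 0 is that percentile, and array values are listed with the 0 h arrays before the 24 h arrays and WT before KO at each time. A difference of at least 2-fold (1 on the log2 scale) is called higher or lower. A call describes the arrays and not the conditions. The scanner's spot error gave a median standard error (SE) of 0.20 for a difference of 2 arrays. That error covers neither culture nor labelling. Of the 43 members, 38 were well above background on all 4 arrays and 1, Oas1g, was so on none. Over all genes, 72.7%, 71.5%, 67.3% and 62.1% of spots were well above background on the 4 arrays. No spot was saturated. The probe for Lpar1 read −3.20, −3.43, −3.15 and −3.61. The genotypes thus differed by less than 2-fold at this probe, and since its place relative to the guide's target was not analysed here, it does not check the knockout. Of the fibroblast markers, Thy1 was near background in WT (−7.02 and −7.41) and high in KO (3.73 and 4.12), and Lum was well above background on WT 24 h alone.

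**Figure D1:**
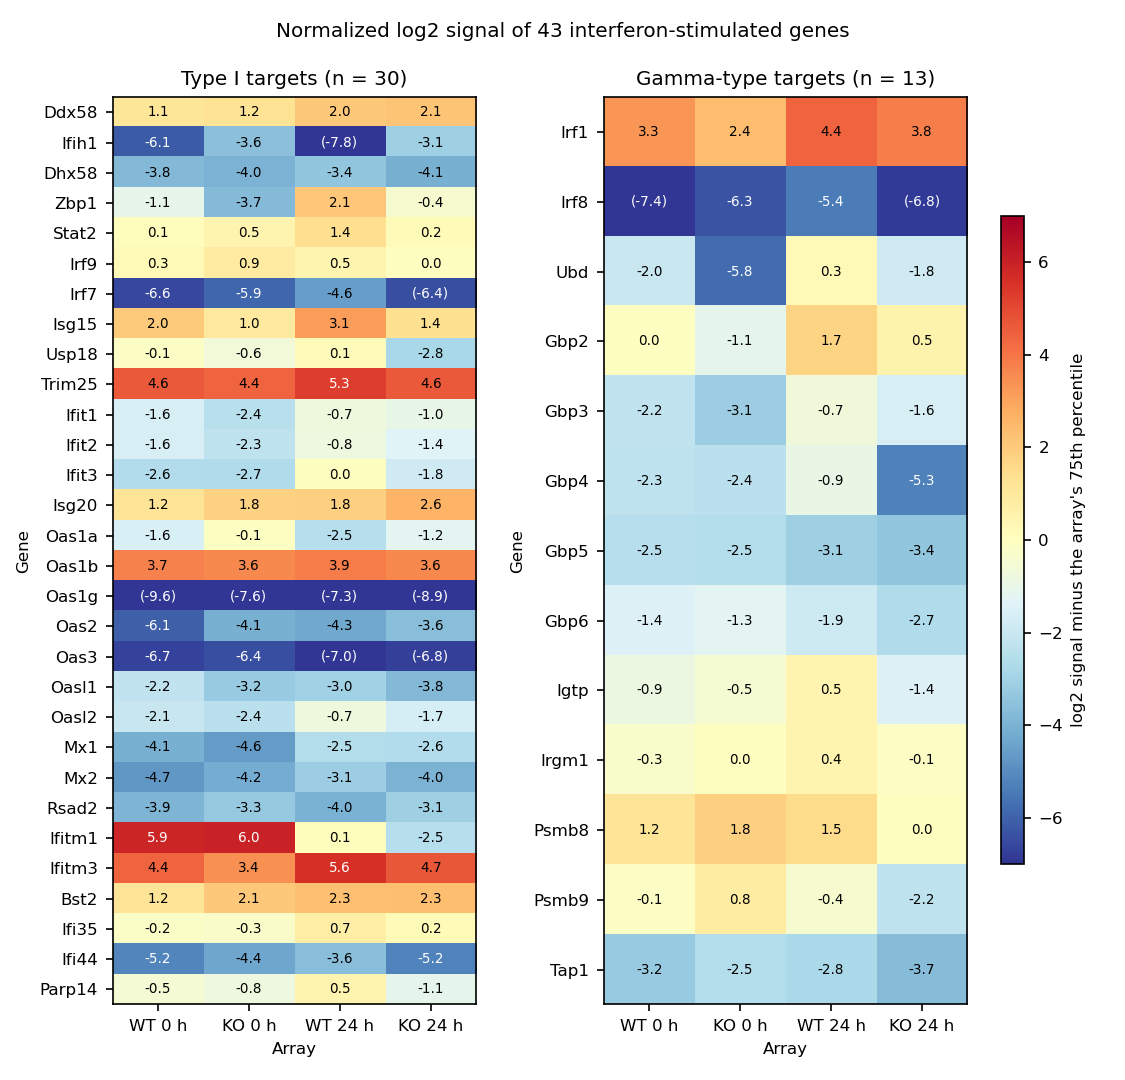
Normalized log2 signal of the 43 members (rows, type I and gamma-type targets) on the 4 arrays (columns), with values not well above background in parentheses. Of the 38 members well above background on all 4 arrays, WT 24 h holds the highest signal of 24 and KO 24 h the lowest of 15. Over all genes so measured, WT 24 h was the highest for 40.8% and KO 24 h the lowest for 22.8%.

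The promoters of the members were searched for the ISRE and GAS elements named above. RefSeq windows of 300 bases (250 before to 50 after an annotated start, build GRCm38.p6) were given for 33 of the 43 members. Both strands were searched for an ISRE core (GAAA, any 2 bases, GAAA), for its extended form (the core followed by CT, so that each extended match contains a core) and for a GAS (TTCNNNGAA), which can overlap the core by some bases. The ISRE core was present in 17 of the 33 members and in 3.44% of all 32851 windows. The extended form was present in 11 of the 33 members and in 0.271% of all windows. The GAS was present in 11 of the 33 and in 8.3% of all windows. Counted per gene over 27025 genes, to allow for members with several windows, the shares were 3.99%, 0.303% and 9.55%. Both classes held both elements: the core was found in 12 of 22 type I and 5 of 11 gamma-type targets, and the GAS in 6 of 22 and 5 of 11. Irf9, Irf7, Trim25, Ubd, Oasl1, Oasl2, Ifitm1, Ifi44, Psmb9 and Tap1 had neither in this window. A match is a run of letters, not a shown binding site.

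The stretches below are written 5′ to 3′ on the strand of the gene, with the matches in capitals. The type I targets Stat2, Isg15 and Ifit3 are shown because they read lower in KO than in WT at 24 h, and Bst2 and Oas1a because they carry the ISRE core too and did not.
Stat2: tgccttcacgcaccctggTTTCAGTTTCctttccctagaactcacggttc
Isg15: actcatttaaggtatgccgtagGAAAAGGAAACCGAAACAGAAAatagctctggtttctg
Ifit3: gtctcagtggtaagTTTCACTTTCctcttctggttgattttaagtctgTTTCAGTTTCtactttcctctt
Bst2: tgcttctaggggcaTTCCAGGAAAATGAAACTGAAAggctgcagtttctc
Oas1a: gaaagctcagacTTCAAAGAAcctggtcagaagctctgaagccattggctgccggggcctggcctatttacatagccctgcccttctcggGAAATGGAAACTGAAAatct
They lie at chr10:128270258-128270307 (plus strand), chr4:156200859-156200918 (minus), chr19:34583359-34583428 (plus), chr8:71537573-71537622 (minus) and chr5:120907526-120907635 (minus) of GRCm38.p6. Isg15 has 3 overlapping cores within 1 run, Ifit3 has 2 separate cores on the opposite strand, and in Bst2 a GAS runs into 2 overlapping cores.

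The gamma-type targets are shown because they differ in which element they carry.
Irf1: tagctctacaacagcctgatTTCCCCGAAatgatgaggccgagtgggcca
Psmb8: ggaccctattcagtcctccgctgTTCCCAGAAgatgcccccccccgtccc
Igtp: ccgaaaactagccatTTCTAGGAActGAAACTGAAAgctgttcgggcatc
Gbp2: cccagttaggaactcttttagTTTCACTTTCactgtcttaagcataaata
Gbp3: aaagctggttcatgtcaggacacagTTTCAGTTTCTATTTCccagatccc
Their places in GRCm38.p6 are chr11:53769904-53769953, chr17:34198075-34198124, chr11:58199496-58199545, chr3:142620583-142620632 and chr3:142559974-142560023, all on the plus strand. Irf1 and Psmb8 hold a GAS alone, Igtp holds a GAS and a core side by side, and Gbp2 and Gbp3 hold the core alone.

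**Figure D2:**
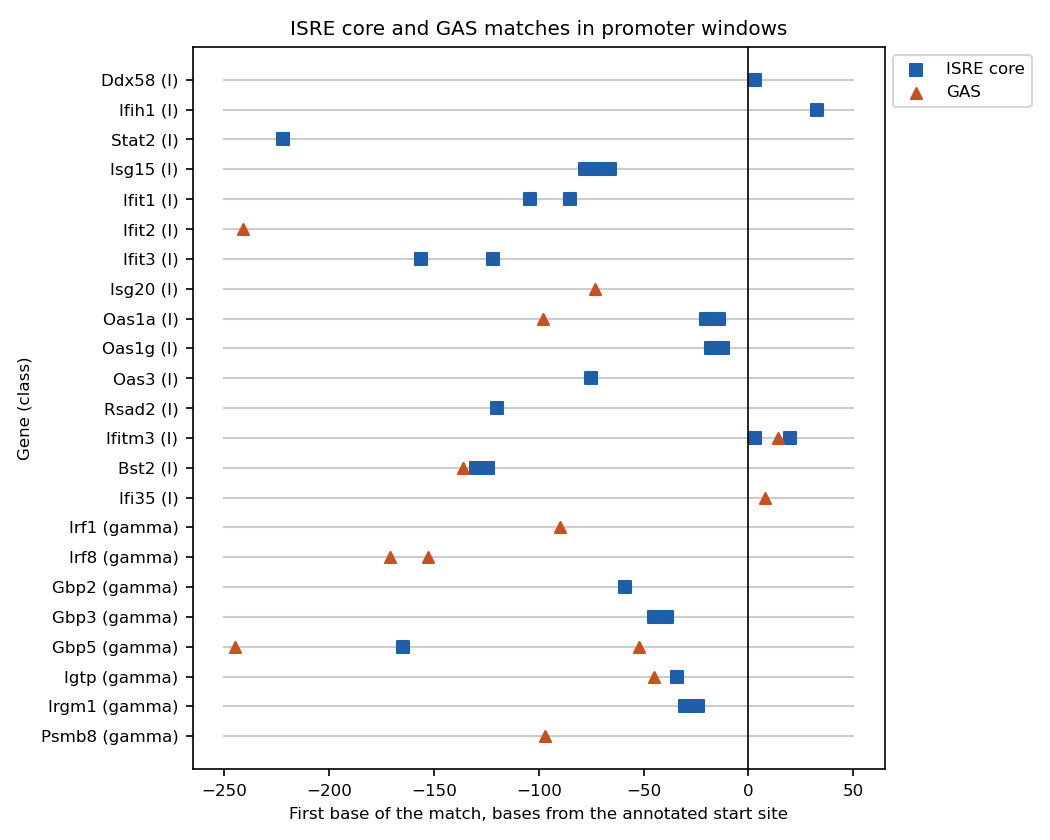
First base of each ISRE core match (squares) and GAS match (triangles) in bases from the annotated start site, for the members with a match, with the class of each gene in parentheses. Grey lines span the 300-base windows, and the matches of Isg15, Gbp2, Gbp3 and Igtp lie within 100 bases before the start.

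At 24 h, most interferon-stimulated genes read lower in KO than in WT fibroblasts. The guanylate-binding protein gene Gbp4 stood 20.1-fold lower, the ISG15 protease gene Usp18 7.54-fold lower, the antiviral membrane protein gene Ifitm1 5.99-fold lower and the nucleic acid sensor gene Zbp1 5.83-fold lower. The size for Gbp4, dim on KO 24 h (−5.26), depends on the processing. Its log2 difference of −4.33 became −2.70 with another background correction (normexp) and quantile normalization. That setting gave −2.43 for Usp18, −2.21 for Ifitm1 and −2.33 for Zbp1. Of the 38 members measured on both arrays, 32 lay below 0, with a median difference of −0.81. Over all genes, 9827 of 17294 lay below 0. At least 2-fold lower were 14 of the 38, which is 36.8%, where 12.3% of all 17294 measured genes were. A single member, Oas1a, was at least 2-fold higher, which is 2.63%, where 5.76% of all genes were. The median of all genes was −0.09. Among genes with a mean signal of at least −4, 13 of 36 members were lower, against 6.56% of all such genes, and 1 was higher, against 6.28%. All 12 measured gamma-type targets lay below 0, with a median of −1.05 and 6 of them called lower. The type I targets had a median of −0.65, with 8 of 26 called lower and 20 of 26 below 0.

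This comparison uses no 0 h array. Signals of mast cell markers were low at 24 h in both genotypes, with a median of −4.99 in WT and −4.92 in KO over 22 markers, of which 16 were well above background in each. Kit, the defining receptor of mast cells, stood at −5.40 in KO and was not well above background in WT (measured at −6.14). The 14 markers measured on both arrays had a median difference of 0.49, with 3 higher and 1 lower. Il1rl1, the receptor gene of interleukin-33, accounts for the highest of them at 3.86 in KO and −2.24 in WT. Fibroblast markers had a median of 2.59 in WT and 2.21 in KO, with 2 of 17 higher and 5 lower in KO and a median difference of −0.27. Macrophage and dendritic cell markers had a median of −3.66 in WT and −3.40 in KO. Pan-leukocyte markers had a median of −4.94 in WT and −5.37 in KO. The 11 of them measured on both arrays had a median difference of −0.46, with 1 higher and 2 lower in KO. In RNA from bulk cells, fewer cells of a type and less RNA per cell cannot be told apart. The part of these marker differences in the result was not tested. Of the 15 calls, 13 held under every scaling, background correction, filter and probe rule tried, the exceptions being Ifi44 and Oas1a. Not every setting could move a call, since the deposited table and the filters leave a member's value all but unchanged.

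**Figure D3:**
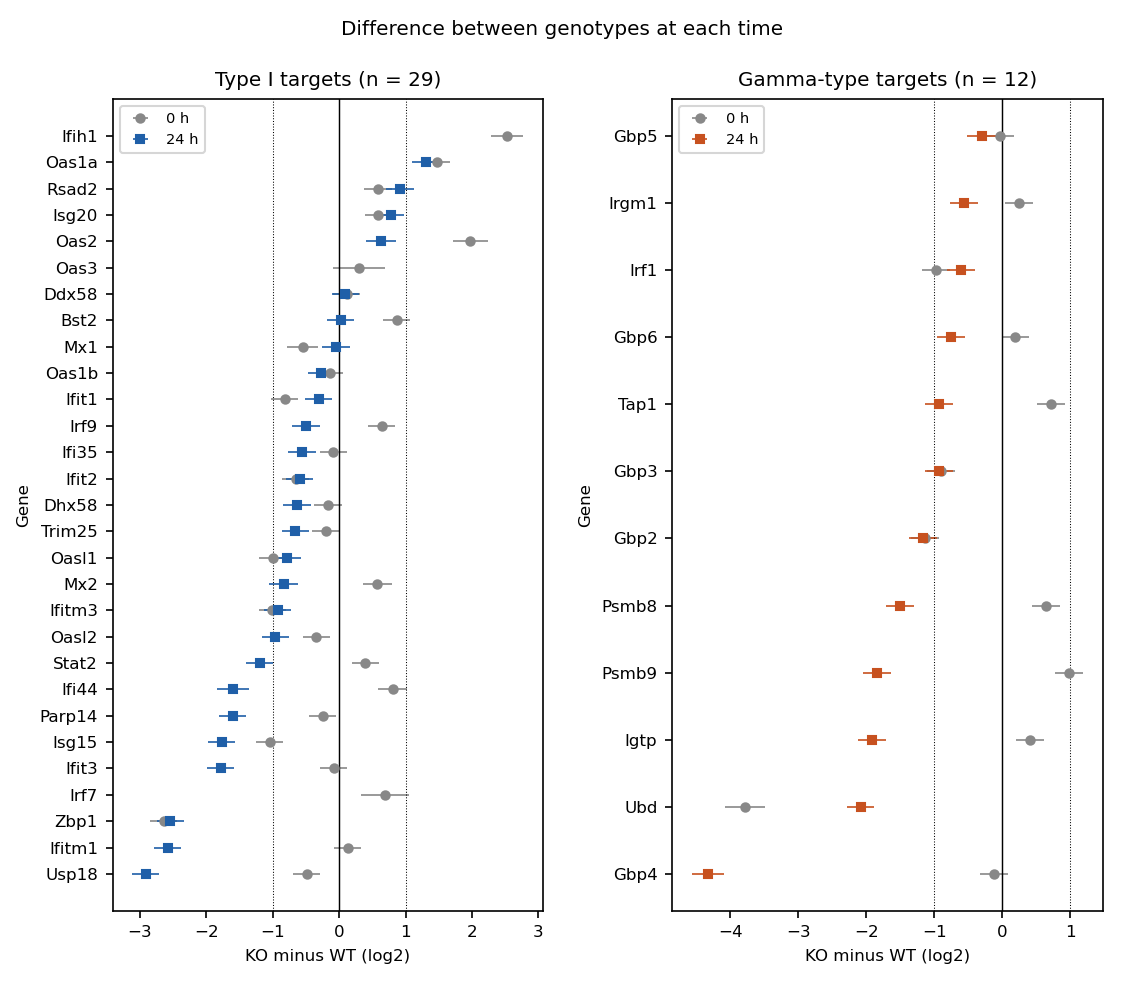
Difference between KO and WT (log2, x axis) for each measured member at 0 h (grey circles) and 24 h (coloured squares), type I targets on the left and gamma-type targets on the right, with bars of ± 1 SE from spot error and dotted lines at 2-fold. At 24 h all 12 gamma-type targets lie left of 0, from −0.31 (Gbp5, by its brighter probe) to −4.33 (Gbp4).

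The sensors were split. Ddx58, which encodes the RNA sensor RIG-I, had signals of 1.10, 1.21, 2.05 and 2.14 and stood 0.09 ± 0.20 (SE) from WT at 24 h. Its dimmer probe gave −0.80 for the same comparison, so the sign for Ddx58 depends on the probe. Zbp1, a sensor of Z-form nucleic acid that can start cell death, had signals of −1.09, −3.74, 2.13 and −0.41. WT exceeded KO at both times, by 2.65 and 2.54, and the dimmer Zbp1 probe gave −1.19 at 0 h and −3.17 at 24 h. Ifih1, which encodes the RNA sensor MDA5, went the other way. Its signals were −6.13, −3.60 and −3.08 on WT 0 h, KO 0 h and KO 24 h, and it was not well above background on WT 24 h (measured at −7.75). At 24 h Ifih1 was at least 8.47-fold higher in KO, taking the lowest signal well above background on the WT array as the floor. The other Ifih1 probe was well above background on no array (measured at −8.09 in WT and −8.65 in KO at 24 h), so the difference rests on 1 probe. Dhx58, a regulator of these sensors, stayed within 2-fold in each comparison, from −0.64 to 0.37.

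Among the transcription factors, Stat2, a subunit of the type I complex, had signals of 0.07, 0.47, 1.41 and 0.22. WT 24 h was the highest array, and KO stood 1.20 ± 0.20 below it. Its probe lies at chr10:127729834-127729893 of mm9. Irf7, which amplifies the type I interferon genes, was dim at −6.58, −5.89 and −4.56 and not well above background on KO 24 h (measured at −6.42). Irf7 was at least 3.63-fold higher in WT than in KO at 24 h. Irf1, the factor induced by interferon gamma, had signals of 3.33, 2.35, 4.40 and 3.80, with KO below WT by 0.98 at 0 h and by 0.60 at 24 h. Irf8 was well above background on KO 0 h (−6.34) and WT 24 h (−5.40), and was at least 2.44-fold higher in WT than in KO at 24 h. For KO against WT at 24 h, 2 dim spike-in controls had a median of −0.79 and 8 brighter ones a median of 0.54. The part of such a shift in the folds of the dim genes Irf7 and Irf8 was not tested. Irf9, the DNA-binding partner of Stat2, stayed within 2-fold in each comparison, from −0.94 to 0.64.

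The ISG15 and ubiquitin-like group had the lowest median of the roles at 24 h, −1.93, with 3 of 4 members called lower in KO. Isg15, the ubiquitin-like protein that is attached to others, had signals of 2.02, 0.97, 3.13 and 1.36. Its probe lies at chr4:155573649-155573708 of mm9. KO was the lower genotype at both times, by 1.05 ± 0.20 at 0 h and by 1.77 ± 0.20 at 24 h, and the second Isg15 probe gave −0.87 and −1.57. Usp18, which removes ISG15 and damps the type I receptor, had signals of −0.13, −0.62, 0.11 and −2.80, with its probe at chr6:121220874-121220933. The KO 24 h array alone stood apart for Usp18, 2.92 ± 0.21 below WT 24 h. Ubd, the ubiquitin-like protein FAT10, had signals of −1.97, −5.75, 0.27 and −1.82. KO stood below WT by 3.78 ± 0.29 at 0 h and by 2.09 ± 0.20 at 24 h. Trim25, a ligase that activates RIG-I, had no call, and its differences ran from −0.66 to 0.66.

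The IFIT proteins, which bind foreign RNA, and the RNA-degrading enzymes were mixed, with 1 of 9 called higher and 1 lower in KO at 24 h and a median of −0.31. Ifit3 had signals of −2.59, −2.67, −0.02 and −1.81. The genotypes were within 0.08 of each other at 0 h and 1.79 apart at 24 h, with WT 24 h the highest. Ifit1 had signals of −1.59, −2.41, −0.71 and −1.02, and KO stood below WT by 0.82 and 0.31. Ifit2 had no call in any comparison, with KO below WT by 0.66 and 0.59. The oligoadenylate synthetases make the messenger that activates RNase L. Oas1a had signals of −1.57, −0.10, −2.51 and −1.21 and was higher in KO at both times, by 1.47 ± 0.20 and 1.30 ± 0.21, and its dimmer probe gave 1.34 and 1.11. Oas2 had signals of −6.06, −4.08, −4.28 and −3.65, with KO higher by 1.98 at 0 h and by 0.63 at 24 h. Oasl2 had signals of −2.06, −2.40, −0.72 and −1.68, and KO was 0.96 lower at 24 h, just inside 2-fold. Oas1b, Oasl1 and the nuclease gene Isg20 had no call, with differences between genotypes of −0.998 to 0.77. Oas3 was well above background at 0 h only (−6.70 in WT, −6.40 in KO), and Oas1g on no array. The Oas1, Ifit and Gbp families hold close copies, and cross-hybridization between them was not tested.

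Of the other antiviral effectors, Ifitm1, a membrane protein that blocks virus entry, had signals of 5.88, 6.01, 0.11 and −2.47. Both 0 h arrays were high and both 24 h arrays low, and KO stood 2.58 ± 0.20 below WT at 24 h. Ifitm3, its relative, had signals of 4.42, 3.41, 5.59 and 4.67, with KO lower by 1.01 at 0 h and by 0.93 at 24 h. Mx1, a GTPase that traps viral particles, had signals of −4.08, −4.63, −2.53 and −2.58, and the genotypes were within 0.05 at 24 h. Mx2 had signals of −4.74, −4.16, −3.12 and −3.96, and KO was 0.84 lower at 24 h. Bst2, the tether of budding virus, had signals of 1.19, 2.06, 2.29 and 2.31. It did not share the lower reading in KO at 24 h, with a difference of 0.02 ± 0.20. Rsad2, the viperin gene, had no call and stood 0.92 higher in KO at 24 h.

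The remaining type I targets were Ifi35, Ifi44 and Parp14. Ifi35 had signals of −0.17, −0.26, 0.74 and 0.18 and no call. Ifi44 had signals of −5.17, −4.37, −3.64 and −5.24, with KO 1.60 ± 0.24 lower at 24 h and 0.81 higher at 0 h. Parp14, an ADP-ribosyltransferase, had signals of −0.53, −0.77, 0.48 and −1.12, and KO was 1.60 ± 0.20 lower at 24 h. For Ifi44 and Parp14, WT 24 h was the highest array and KO 24 h the lowest.

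All 7 immunity GTPases were lower in KO at 24 h, with a median of −0.94 and 3 called. Gbp2 had signals of −0.01, −1.15, 1.70 and 0.53, and KO was lower by a similar amount at both times, 1.14 ± 0.20 and 1.17 ± 0.20. Gbp3 had signals of −2.24, −3.14, −0.68 and −1.62, again with similar differences of −0.90 and −0.94. This likeness of the 2 times depends on the scale. Centred on fibroblast markers, Gbp2 stood at 0.18 at 0 h and −1.04 at 24 h, and that centring shifts Gbp3 by the same amounts. Gbp4 had signals of −2.27, −2.39, −0.93 and −5.26, with its probe at chr5:105544852-105544911 of mm9. The genotypes were within 0.12 of each other for Gbp4 at 0 h, and the KO 24 h array was far below the rest, 4.33 ± 0.24 under WT 24 h. Igtp, a GTPase of pathogen vacuoles also called Irgm3, had signals of −0.85, −0.45, 0.47 and −1.45. Its KO was 0.40 higher at 0 h and 1.92 ± 0.20 lower at 24 h. Irgm1 and Gbp5 had no call, at −0.57 and −0.31 for KO against WT at 24 h. The dimmer Gbp5 probe, well above background on all 4 arrays, gave −1.275 for that comparison, beyond 2-fold. Gbp6 had signals of −1.45, −1.26, −1.91 and −2.67 by its brighter probe and −2.93, −3.46, −0.84 and −3.78 by the other. Both Gbp6 probes read lower in KO at 24 h, by 0.76 and 2.94, and they opposed each other at 0 h.

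The antigen-processing members, all coded in the MHC region of chromosome 17, read lower in KO at 24 h and higher in KO at 0 h. Psmb8, a catalytic subunit of the immunoproteasome, had signals of 1.18, 1.82, 1.50 and −0.01. Psmb9, its partner subunit, had signals of −0.14, 0.84, −0.40 and −2.25. Tap1, a chain of the peptide transporter, had signals of −3.24, −2.52, −2.75 and −3.68. KO 24 h was the lowest array and KO 0 h the highest for each of the 3. At 24 h the KO differences were −1.50 ± 0.20, −1.84 ± 0.20 and −0.93 ± 0.21. The probes lie at chr17:34337771-34337830, chr17:34319174-34319233 and chr17:34330854-34330913 of mm9.

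At 0 h the genotypes were close for most members. The median difference was −0.03 over 41 members, with 3 called higher in KO (Ifih1, Oas1a and Oas2) and 5 called lower (Zbp1, Isg15, Ubd, Ifitm3 and Gbp2). These are 7.32% and 12.2% of the members, where 9.34% and 4.07% of all 20318 measured genes were called. Among genes with a mean signal of at least −4, 1 of 36 members was higher and 5 were lower, against 5.96% and 4.88% of all such genes. Type I targets had a median of −0.08 and gamma-type targets one of 0.08. Zbp1, Isg15, Ubd and Gbp2 were called lower in KO at both times, and Oas1a was called higher at both. The share of all genes called at both times was not computed. The 0 h and 24 h comparisons share no array. At 0 h, Oasl1 (−0.998) and Irf1 (−0.98), lower in KO, and Psmb9 (0.98), higher in KO, lay just inside 2-fold.

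The 0 h values depend on the scale. Both 0 h arrays carried abundant mast cell transcripts, with a median over the 22 markers of 3.67 in WT and 4.53 in KO, and all 21 measured markers were higher in KO, by a median of 0.91. Fibroblast markers had a median of 1.84 in WT and 0.97 in KO, with 8 of 19 lower in KO, 3 higher and a median difference of −0.79. Centring each array on its fibroblast markers moved the median of all genes from 0.06 to 1.37. On that scale 28 members were called higher in KO at 0 h and 2 lower, and Isg15, Ifitm3 and Gbp2 turned to 0.27, 0.31 and 0.18. Zbp1, Ubd and Oas1a kept their calls under every setting tried. With normexp background correction and quantile normalization together, the split was 1 higher and 4 lower, and the dim genes Ifih1 and Oas2 stood at 0.85 and 0.52. The part of the mast cell transcripts in the 0 h values was not tested.

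In WT, interferon-stimulated genes mostly read higher at 24 h than at 0 h. Zbp1 was 3.22 higher, Ifit3 2.57, Ubd 2.24, Irf7 2.02, Oas2 1.78 and Gbp2 1.71. Of 39 measured members, 19 (48.7%) were called higher, where 15.8% of all 19198 measured genes were, and 1 (2.56%), Ifitm1, was called lower, where 5.57% were. The median was 0.95, against 0.28 over all genes. Fibroblast markers also read higher at 24 h in WT, with a median of 0.81 and 8 of 18 (44.4%) called higher, and their part in the members' values was not tested. Among genes with a mean signal of at least −4, 16 of 36 members were called higher, against 4.35% of all such genes, and 1 was called lower, against 6.52%. The type I and gamma-type targets had similar medians, 0.95 and 0.90, with 13 of 27 and 6 of 12 called higher. The other calls were Stat2, Irf1, Isg15, Oasl2, Mx1, Mx2, Ifitm3, Bst2, Ifi44, Parp14, Gbp3, Gbp4 and Igtp, from 1.01 to 1.62. Irf8 was at least 3.87-fold higher at 24 h. The antigen-processing members had no call, from −0.26 to 0.49. With normexp and quantile normalization 10 members were called higher, and the dim genes Irf7 and Oas2 stood at 0.45 and 0.49. In the same comparison 2 dim spike-in controls had a median of 1.12 and 8 brighter ones a median of 0.25.

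In KO the members went both ways at 24 h against 0 h. Of 39 measured, 8 were called higher and 8 lower, each 20.5%, where 9.48% and 10.9% of all 17865 measured genes were, and the median was 0.20 against 0.23 over all genes. Among genes with a mean signal of at least −4, 8 of 36 members were higher and 8 lower, against 10.4% and 9.76% of all such genes. Higher were Ubd (3.94), Zbp1 (3.32), Mx1 (2.05), Gbp2 (1.68), Gbp3 (1.52), Irf1 (1.44), Ifit1 (1.39) and Ifitm3 (1.26). Lower were Ifitm1 (−8.48), Psmb9 (−3.09), Gbp4 (−2.87), Usp18 (−2.18), Psmb8 (−1.83), Gbp6 (−1.41), Tap1 (−1.16) and Oas1a (−1.10). The gamma-type targets had a median of −0.94, with 4 called higher and 5 lower of 12. The type I targets had one of 0.25, with 4 higher and 3 lower of 27. For Zbp1 the dimmer probe gave 0.40 in place of 3.32, for Gbp6 it gave −0.31 in place of −1.41, and for Oas1a −0.55 in place of −1.10. With the mean of probes Gbp6 (−0.86) and Oas1a (−0.83) lost their calls. Centred on the fibroblast markers, the all-gene median was −1.11, the split was 2 higher and 22 lower, and Ifitm3 turned to −0.07.

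**Figure D4:**
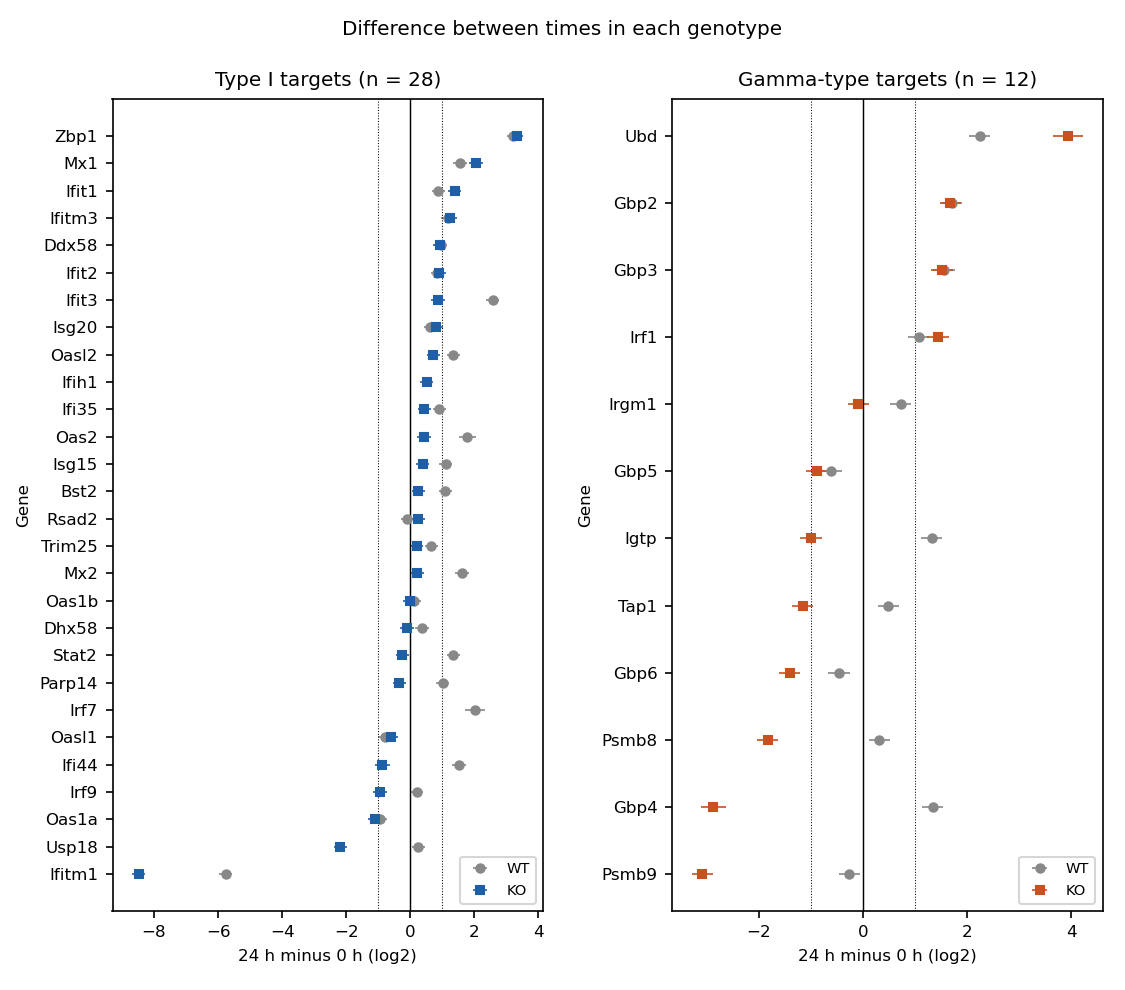
Difference between 24 h and 0 h (log2, x axis) for each measured member in WT (grey circles) and KO (coloured squares), type I targets on the left and gamma-type targets on the right, with bars of ± 1 SE from spot error and dotted lines at 2-fold. On this scale, though not when centred on fibroblast markers, Gbp2 and Gbp3 have similar values in both genotypes, while Gbp4 lies at 1.34 in WT and −2.87 in KO.

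Zbp1, Irf1, Ubd, Mx1, Ifitm3, Gbp2 and Gbp3 were called higher at 24 h in both genotypes, and these contrasts share no array. The share of all genes called higher in both was not computed. Centred on fibroblast markers, the KO differences of Irf1 (0.11), Mx1 (0.72), Gbp2 (0.35) and Gbp3 (0.19) fell under 2-fold. On that scale Ifitm3 turned to −0.07, and Zbp1 and Ubd kept their KO calls. Ifitm1 was called lower in both genotypes, by 5.77 ± 0.20 in WT and 8.48 ± 0.20 in KO. Gbp4 was the 1 member with opposite calls. The KO difference less the WT difference had a median of −0.54 over 38 members and 0.03 over all 17119 genes. It was at least 2-fold lower for 14 members (36.8%), where 13.3% of all genes were, and at least 2-fold higher for 1 member (Ubd, 2.63%), where 4.72% were. The lowest were Gbp4 (−4.21), Psmb9 (−2.82), Ifitm1 (−2.71), Usp18 (−2.43), Ifi44 (−2.41), Igtp (−2.32) and Psmb8 (−2.14). This quantity uses all 4 arrays and so shares them with the comparisons above. It was not computed under the other settings, and it depends on them. For Ubd, dim on KO 0 h (−5.75), normexp with quantile normalization gave time differences of 2.05 in WT and 2.04 in KO. Centring on fibroblast markers gave 2.1 and 2.6 for Ubd. The all-gene medians on that scale were 0.14 in WT and −1.11 in KO.

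Mast cell transcripts moved with time in both genotypes. All 16 measured mast cell markers were called lower at 24 h in WT, with a median of −8.56, and all 16 in KO, with a median of −8.91. Pan-leukocyte markers had medians of 1.47, 2.59, −4.94 and −5.37 on the 4 arrays over 18 genes. Ifitm1 was the single member whose signal followed this pattern on all 4 arrays with a drop of more than 5 in each genotype. Psmb9 and the brighter Gbp6 probe had the same order of arrays with smaller drops. These were 0.26 in WT and 3.09 in KO for Psmb9, and 0.46 and 1.41 for Gbp6. Macrophage and dendritic cell markers had medians of −2.86, −2.01, −3.66 and −3.40 over 12 genes. Fibroblast markers read higher at 24 h in both genotypes, by a median of 0.81 in WT (8 of 18 called higher, 0 lower) and 1.17 in KO (11 of 18 higher, 1 lower). How far mast cell RNA or the share of fibroblast RNA set any member's difference between the times was not tested.

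**Figure D5:**
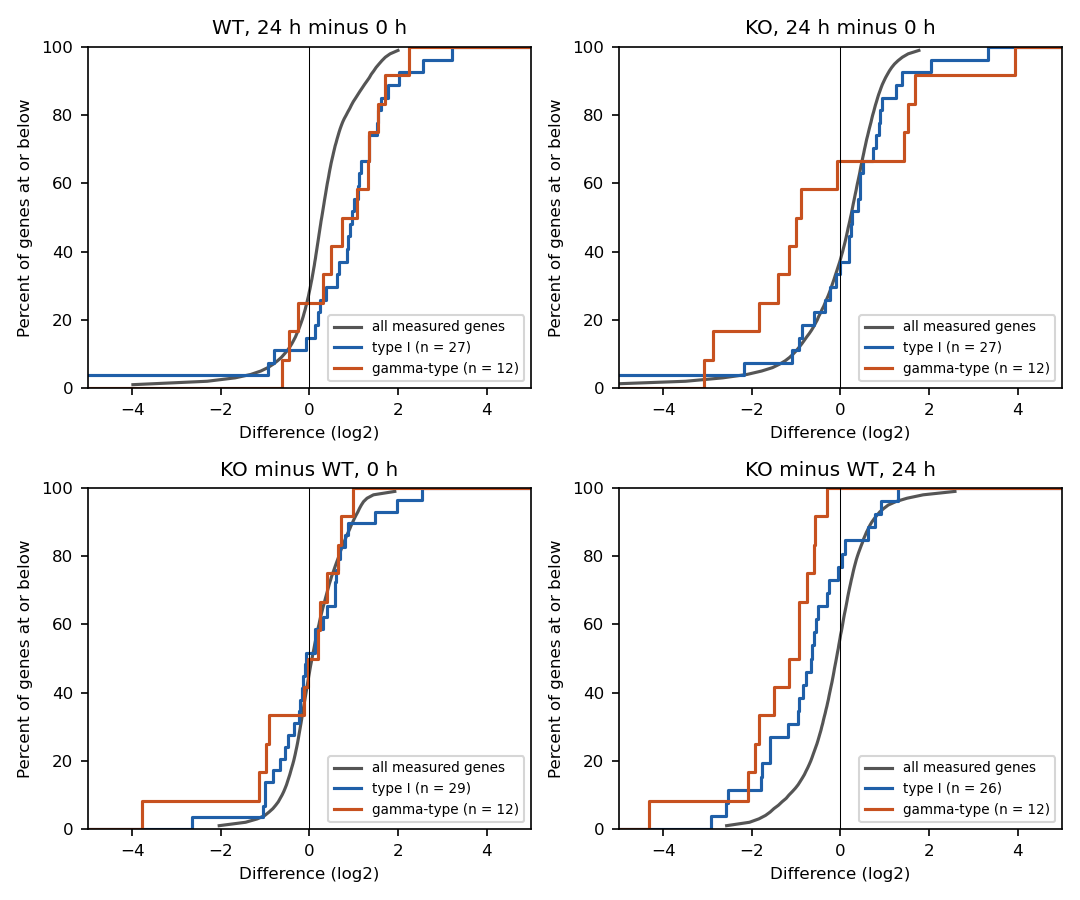
Cumulative percent of genes (y axis) at or below a log2 difference (x axis) in the 4 comparisons, for all measured genes (grey), type I targets (blue) and gamma-type targets (orange), drawn from −5 to 5. In KO against WT at 24 h the gamma-type curve reaches 100% left of 0, and in WT over time both classes lie right of all genes over most of the range above 0 and cross them below it.

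The upstream pathway was read from lists of other genes. Their counts stand against the shares of all measured genes. In KO against WT, 5.76% of all genes were called higher and 12.3% lower at 24 h, and 9.34% and 4.07% at 0 h. Over time, 15.8% were called higher and 5.57% lower in WT, and 9.48% and 10.9% in KO. Of 14 interferon genes 12 were on the array, and all were dim, with a median signal of −6.27, −5.59, −5.27 and −6.13. Ifnb1 was well above background on the KO arrays only, at −6.69 (0 h) and −6.14 (24 h), close to the lowest signals so read. Of 6 interferon genes measured at 24 h, 1 (Ifna11, at −1.69) was called lower in KO and all 6 lay below 0. For the same comparison, 2 dim spike-in controls had a median of −0.79 and 8 brighter ones a median of 0.54.

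The receptor chains were well above background on all 4 arrays and within 2-fold between genotypes. Ifnar1 had signals of 0.50, −0.15, 0.95 and 0.46, and Ifnar2 had 2.06, 1.92, 2.51 and 2.44. For interferon gamma, Ifngr1 had 1.44, 1.78, 1.89 and 2.14, and Ifngr2 had 1.73, 1.45, 2.78 and 3.11. The largest difference between genotypes among the 4 receptor genes was 0.654 (Ifnar1, lower in KO at 0 h). Of 16 receptor and JAK-STAT genes, 14 were measured at 24 h, with 0 called higher in KO and 2 lower. The share lower, 14.3%, was near the 12.3% of all genes. The lower ones were the feedback inhibitor Socs3 (−1.53) and the STAT inhibitor Pias1 (−1.50). At 0 h 1 of 15 was called higher, the feedback inhibitor Socs1 (1.03), and 0 lower. Between the times, 1 of 15 was higher and 2 lower in WT, and 1 of 14 was higher and 4 lower in KO. Ifngr2 was the gene called higher in each genotype, by 1.05 in WT and 1.67 in KO.

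Among 18 genes of nucleic acid sensing and interferon induction, 17 were measured at 24 h, with 1 called higher in KO and 3 lower and a median of −0.20. These shares, 5.88% and 17.6%, were near the 5.76% and 12.3% of all genes. The higher gene was Irf5 (1.47). The lower were the receptor genes Tlr4 (−1.16) and Tlr7 (−1.005) and the adaptor gene Ticam1 (−1.09). At 0 h 0 of 17 were called higher and 1 lower, Tlr7 (−2.85). Between the times 0 of 18 were called in WT, where 15.8% of all genes were called higher and 5.57% lower. In KO 2 of 17 (11.8%) were called higher, Tlr7 (1.97) and Irf5 (1.02), where 9.48% of all genes were.

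The other MHC class I genes went both ways. Of 13 listed, 12 were measured at 24 h, and 4 were called higher in KO and 2 lower there, with a median of −0.05. These are 33.3% and 16.7%, where 5.76% and 12.3% of all genes were. H2-K1, a class I heavy chain, had signals of 4.50, 5.67, 4.01 and 5.81. KO exceeded WT at both times, by 1.17 and 1.80. H2-T23 (1.40), H2-D1 (1.18) and their activator Nlrc5 (1.71) were also higher in KO at 24 h. The lower genes were the transporter partner Tap2 (−1.11) and the proteasome activator Psme1 (−1.17). At 0 h 3 of 12 were higher and 0 lower. Against 0 h, 1 was higher and 1 lower in WT, and 1 was higher and 2 lower in KO. Tap2, with signals of 3.01, 4.03, 2.86 and 1.75, had the order of arrays of Tap1 at its ends, KO 0 h the highest and KO 24 h the lowest.

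Of the 43 members, 28 were called in 1 or more of the 4 comparisons. The share of all genes so called was not computed, so this count has no baseline. Another 12 were measured in all 4 and called in none, which were Ddx58, Dhx58, Irf9, Trim25, Ifit2, Isg20, Oas1b, Oasl1, Rsad2, Ifi35, Gbp5 and Irgm1. The last 3, Irf8, Oas1g and Oas3, were not measured in every comparison. WT 24 h was the highest array for 24 members, 17 type I and 7 gamma-type, where it was the highest for 40.8% of all genes measured on 4 arrays. KO 24 h was the lowest for 15 of the 38 members measured on 4 arrays, and for 22.8% of all such genes. Different probes of a member disagreed in sign in at least 1 comparison for Ddx58, Oas1b, Gbp5, Gbp6 and Irgm1, and by more than 2-fold for Zbp1, Oas1b and Gbp6. Among the 12 members without a call, some dimmer probes passed 2-fold. These were of Ddx58 (1.18 in WT over time), Oas1b (−1.02 in KO over time) and Gbp5 (−1.71 in KO over time, −1.275 between genotypes at 24 h).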

How the data were processed

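Spot intensity came from the deposited scanner files, which per the submitters' processing notes were made with Agilent Feature Extraction 12.1.1.1. The processed intensity is background-subtracted and unscaled between arrays, and probes are placed on mm9, per the file headers. Values of the deposited table are a ratio of processed signal to the array's 75th percentile, with column medians of 0.0442, 0.0483, 0.0452 and 0.0334. It is linear, not centred, and runs in the direction of signal. From the deposited intensity, log2 values were taken and each array's 75th percentile over 43020 non-control spots subtracted, in Python 3.11.15 with pandas 2.3.3. Outlier spots were left out and spots of a probe averaged. RefSeq accessions named 29110 of 39429 probes. A gene took its probe with the highest mean signal. It counted as measured where that probe was well above background on both arrays. An at-least fold sets the bright signal against the dim array, taking there the probe's signal or the lowest signal well above background, whichever is higher. Errors are the scanner's spot errors. All 4 arrays lay on 1 slide.

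The number of arrays, 1 per group, limits the precision. Alternatives were quantile normalization, normexp (limma 3.58.1, offset 50) with quantile normalization, the deposited table, centring on fibroblast markers, no filter, a stricter filter and the mean of probes. The scripts were tested on simulated data. Members, lists and roles were chosen with earlier results of these data known. Values on every array are printed for members called in 1 or more comparisons and for the first member of each role, and the others by range. Of the other lists, counts are given with the genes at their ends, and the receptors and Ifnb1. A listed pathway gene is not reported here. No mm9 annotation was used, so exon and UTR positions of probes are not analysed here. Whether the pooled samples came from separate cultures is not given in the sources used here.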

Additional observations from a re-analysis of the deposited data

Results flagged for a closer look

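Gbp4, the guanylate-binding protein gene, moved in opposite directions over time in the genotypes. It was 1.34 higher at 24 h than at 0 h in WT and 2.87 lower in KO (−2.87), a difference of −4.21 on the log2 scale. With 1 array per group this difference was not tested. The KO difference kept its direction and its 2-fold call under every alternative, at −1.32 with normexp and quantile normalization, −2.33 with quantile normalization alone and −4.20 with fibroblast centring.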

How the results depend on the processing

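No paired analysis was possible because each group has 1 array. With KO against WT at 24 h, 13 of 15 calls held under every alternative. Of the others, 11 of 20 held for WT over time, 7 of 16 for KO over time and 3 of 8 for the genotypes at 0 h. The deposited table and the filters leave a member's value all but unchanged, and the mean of probes changes only members with several probes. Only the normalizations and the fibroblast centring could move every value. Centring on fibroblast markers gave KO over time medians of −1.08 (type I) and −2.28 (gamma-type) with 2 members higher and 22 lower. At 0 h it gave medians of 1.23 and 1.40 with 28 higher and 2 lower, in WT over time 2 lower, and at 24 h 2 higher in KO. It turned the sign of Ifitm3 in KO over time (−0.0747) and of Isg15 (0.269), Ifitm3 (0.308) and Gbp2 (0.177) at 0 h. Normexp with quantile normalization gave 10 higher in WT over time, 1 higher at 0 h, 0 higher in KO at 24 h, and a gamma-type median of −0.448 in KO over time, where quantile normalization alone gave −0.717. Without a filter there were 2 lower in WT over time, 5 higher at 0 h and 2 higher at 24 h. The stricter filter left 1 higher at 0 h, and the mean of probes gave a gamma-type median of −1.34 at 24 h. Apart from the filters, which change the genes tested, the cause was not tested. Low signal over background limits the interferons, Ifih1, Irf7, Irf8 and Oas3, each dim or not well above background on some arrays.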

Other observations

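The MHC class II genes, induced by interferon gamma in many cell types, were mostly dim, with 4 of 8 well above background on all 4 arrays. Cd74, the invariant chain, had signals of −1.93, −3.28, −0.61 and −3.36 (0 h before 24 h, WT before KO). KO stood below WT by 1.35 at 0 h and by 2.75 at 24 h. H2-DMb1, a peptide-loading chain, had signals of 0.29, 1.39, −3.55 and −2.26, high at 0 h and low at 24 h in both genotypes, with KO higher by 1.10 and 1.28. Ciita, the class II activator, stayed within 2-fold, from −0.52 to 0.21.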
